A study of Homo sapiens with 6 samples.

Results

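Collagen genes were examined in RNA-seq of U251 cells, an established human glioblastoma line. They were taken as all protein-coding genes whose symbol has the form COL, a type number, A and a chain number. This gave 44 genes of the 58735 genes in the expression table, among them 19951 protein-coding genes. The NC group (n = 3) received sterile deionized water and the TNF-α group (n = 3) received recombinant human tumor necrosis factor-α at 10 ng/mL, each for 24 h, in high-glucose DMEM with fetal bovine serum. The labels call the 3 cultures of a group independent biological replicates. The cells carry no transgene or deletion in the labels, and a single line was used.

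Collagens are extracellular matrix proteins built from 3 chains that wind into a triple helix. Fibrillar collagens pack into fibrils, type IV chains form the sheet-like network of basement membranes, type VI chains form beaded filaments, and fibril-associated collagens decorate fibril surfaces. Normal brain tissue holds little fibrillar collagen and keeps most of its collagen in the basement membranes of vessels, whereas cultured glioma lines of mesenchymal character make a broader set of chains. TNF-α is an inflammatory cytokine that activates the transcription factor NF-kB.

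The reads in genes, recovered from the table as whole fragments, numbered 31992167 to 37897044 per library, so depth was similar. TNF-α replicates 2 and 3 differed from the other 4 libraries by gene length and GC content. The share of reads in genes over 8 kb was 16.6% and 17.9% in these, and 28.8% to 29.1% elsewhere. This bears on collagen genes directly, because all 21 that could be tested were at least 4217 bases long and 13 of them were 8 kb or longer, while 19.5% of all tested genes were that long. Each TNF-α library is therefore given separately throughout. Of 8 glioma line markers, VIM, NES, SOX2, EGFR and CD44 were present in all 6 libraries, and S100B and CHI3L1, at most 0.168 FPKM, were near 0. GFAP, the astrocyte filament protein, was at 7.10 to 9.47 FPKM in the NC libraries and 1.58 to 2.60 FPKM in the TNF-α libraries. Of 6 fibroblast and pericyte markers 5 stayed below 1 FPKM in every library. POSTN was at 0 in each, DCN and LUM were at most 0.0207 FPKM, and PDGFRB and RGS5 reached 0.174 and 0.780 FPKM. THY1, the remaining marker, was at 10.4 to 11.1 FPKM without TNF-α and 13.1, 28.8 and 24.8 FPKM in TNF-α replicates 1 to 3, and its part in the collagen values was not tested.

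The sequences around the start sites that bear on the results come first. COL27A1 was the single collagen gene past the test's threshold, and the 250 bases before its start site (GRCh38.p14, chr9:114155287-114155536, plus strand, from RefSeq) are shown for that reason. Capitals mark the 2 matches to the GC box GGGCGG, a word bound by the SP family of factors.
COL27A1: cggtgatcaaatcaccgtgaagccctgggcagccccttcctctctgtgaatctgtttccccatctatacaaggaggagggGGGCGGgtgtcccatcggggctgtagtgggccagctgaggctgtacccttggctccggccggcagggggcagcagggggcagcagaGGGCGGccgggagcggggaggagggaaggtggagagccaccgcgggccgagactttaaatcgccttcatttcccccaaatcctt

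Promoter windows, which run from 250 bases before to 50 bases after a start site, were on hand for 32 of the 44 genes and for 16 of the 21 tested ones. They were searched on both strands for 4 motifs. The NF-kB consensus was found in the windows of COL6A2 and COL7A1, that is in 2 of 16 genes, and in 11.3% of all 35116 windows. The stretches that hold it are printed 5′ to 3′ on the strand of the gene, with overlapping matches joined in capitals. That of COL6A2 lies at chr21:46097917-46097945 on the plus strand, and those of COL7A1 at chr3:48595507-48595534 and chr3:48595468-48595496 on the minus strand. They begin their capitals 186, 196 and 158 bases before the start sites.
COL6A2: cgggctgcaGGGGGGTCCCCaccctctcc
COL7A1 first match: atggagttaGGGGTACTCCctcagcatc
COL7A1 second match: gaaccttctGGGAAATTCCCagaagccac
The GC box was found for 12 of the 16 genes and in 44.95% of all windows, the word CCAAT for 6 genes and in 34.6% of windows, and the word TATAAA for 5 genes and in 11.5% of windows. A gene was counted if any window of it held a match, whereas the background shares count single windows, so these measures are unlike. A match is a description of the letters in the window only.

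Levels were first described without a test. Where a level is given per library, NC replicates 1 to 3 come first, then TNF-α replicates 1 to 3. FPKM is fragments per kilobase of gene length, scaled to library size. The length is that of all merged exons of a gene, so the order of levels between genes depends on the annotated exons. COL4A2 (19293 bases) had 18600 to 19202 reads in the NC libraries and COL6A1 (5343 bases) 8148 to 9227, though COL6A1 was higher in FPKM. In the NC libraries COL1A2, the α2 chain of type I collagen, had the highest level of the family at 120.1 ± 8.01 FPKM (mean ± SD, n = 3). COL12A1, the chain of a collagen that sits on fibril surfaces, followed at 53.0 ± 2.53 FPKM, COL6A1 at 49.1 ± 4.03 FPKM and COL6A2 at 40.7 ± 2.57 FPKM. COL5A2 had 31.4 ± 1.83, COL4A2 29.2 ± 1.58, COL5A1 24.6 ± 1.18 and COL4A1 14.4 ± 1.35 FPKM. These 8 genes were the ones with a mean of at least 10 FPKM, and the other 13 tested genes lay between 1.10 and 7.08 FPKM. In this order, 8 of the 20 pairs of neighbours were apart in all NC libraries. COL1A2 lay above COL12A1, COL6A1 above COL6A2, COL6A2 above COL5A2, COL4A2 above COL5A1, COL5A1 above COL4A1, COL4A1 above COL6A3, COL18A1 above COL4A5 and COL9A3 above COL4A6. The other 12 pairs, COL12A1 with COL6A1 and COL5A2 with COL4A2 among them, overlapped between the NC libraries.

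**Figure D1:**
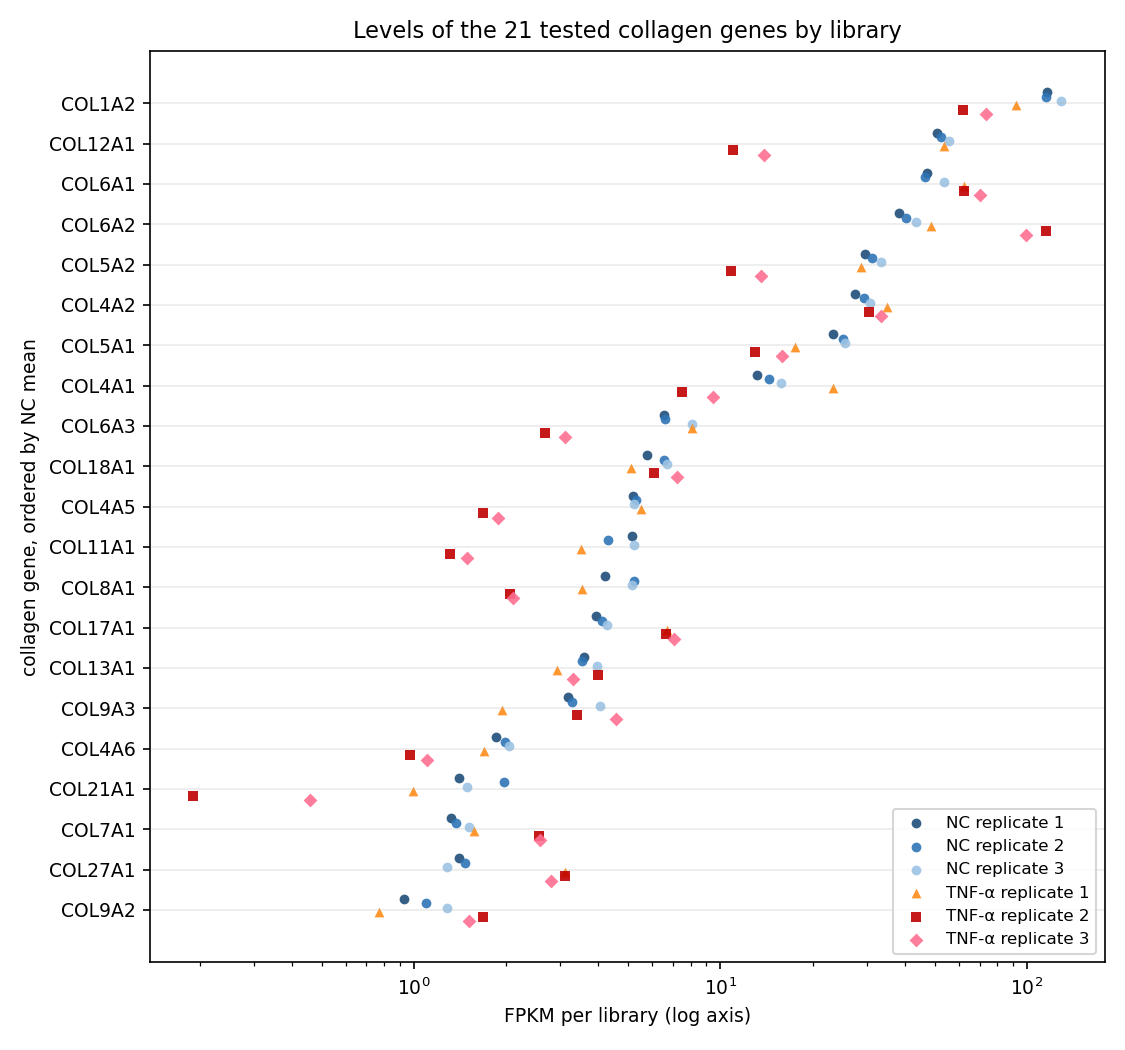
FPKM of the 21 tested collagen genes (log axis) in each of the 6 libraries, with genes ordered from top to bottom by their NC mean and 1 symbol per library. The TNF-α libraries of COL17A1 and COL27A1 lie together to the right of the NC libraries, while for COL12A1 TNF-α replicate 1 lies among the NC libraries and replicates 2 and 3 lie far to the left.

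The partner chains of type I collagen were far from equal. COL1A1 encodes the α1 chain, which contributes the larger number of chains to the ordinary type I molecule. It had 190, 261 and 191 reads without TNF-α and 145, 121 and 100 reads in TNF-α replicates 1 to 3. COL1A2 was 216, 142 and 214 times as high as COL1A1 in FPKM in the NC libraries and 199.9, 130.0 and 175 times as high in the TNF-α libraries. The ranges overlapped between the groups, so the imbalance was present with and without TNF-α. COL3A1, the main partner of type I collagen in soft tissue, had 0 reads in all 6 libraries, and COL2A1, the cartilage fibril chain, had at most 5 reads.

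A total of 23 collagen genes did not reach 1 FPKM in 3 libraries and were not tested. COL3A1, COL6A5 and COL22A1 had 0 reads in every library, where a count of 0 allows up to 3 reads, and intervals of this kind cover counting error only. Including these, 11 genes stayed below 10 reads in every library. Only COL14A1, COL1A1, COL4A4 and COL4A3 reached 100 reads in some library. COL14A1, a fibril-associated chain, had 380, 323 and 274 reads without TNF-α and 240, 121 and 123 with it. COL4A4 had 163, 216 and 188 reads against 206, 67 and 45, and COL4A3, its partner in specialised basement membranes, 113, 120 and 66 against 104, 40 and 48. The TNF-α libraries of COL14A1 lay below all NC libraries, whereas TNF-α replicate 1 lay within the NC range for both type IV genes. COL16A1 had 34 to 50 reads and COL24A1 had 4 to 49 reads over the 6 libraries. COL8A2, the partner of COL8A1, had 6, 16 and 15 reads against 4, 2 and 0. In the genes below 10 reads this depth could not show a difference.

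Summed FPKM by structural class showed which kinds of collagen transcript the cells held. In the NC libraries fibrillar chains made up 44.1% to 44.8% of the collagen FPKM, type VI chains 23.0% to 23.9%, fibril-associated chains 14.5% to 14.8% and type IV chains 12.3% to 12.9%. In TNF-α replicates 1 to 3 the fibrillar share was 35.5%, 25.9% and 29.1%, and the type VI share was 29.1%, 51.4% and 46.7%. For both classes these shares of the TNF-α libraries lay outside the NC range, with replicate 1 nearest to it. Of all reads in genes, type VI chains took 0.0560% to 0.0628% in the NC libraries and 0.0697%, 0.0696% and 0.0738% in TNF-α replicates 1 to 3. Fibrillar chains took 0.176% to 0.190% and 0.140%, 0.0677% and 0.0878%. Type IV chains took 0.0773% to 0.0845% in the NC libraries, more than type VI chains on this scale. The fibril-associated share was 14.3% in replicate 1 and 4.86% and 5.70% in replicates 2 and 3, and it followed COL12A1. The sum over all collagen genes was 393, 405 and 441 FPKM without TNF-α and 409, 350.1 and 370.3 FPKM with it. As a share of all reads in genes, without the scaling inside the FPKM, the same genes took 0.388% to 0.422% in the NC libraries and 0.392%, 0.212% and 0.254% in TNF-α replicates 1 to 3, so the difference of replicates 2 and 3 is larger on that scale. These sums were not tested. In bulk RNA, fewer cells that make a chain and less RNA per cell cannot be told apart.

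**Figure D2:**
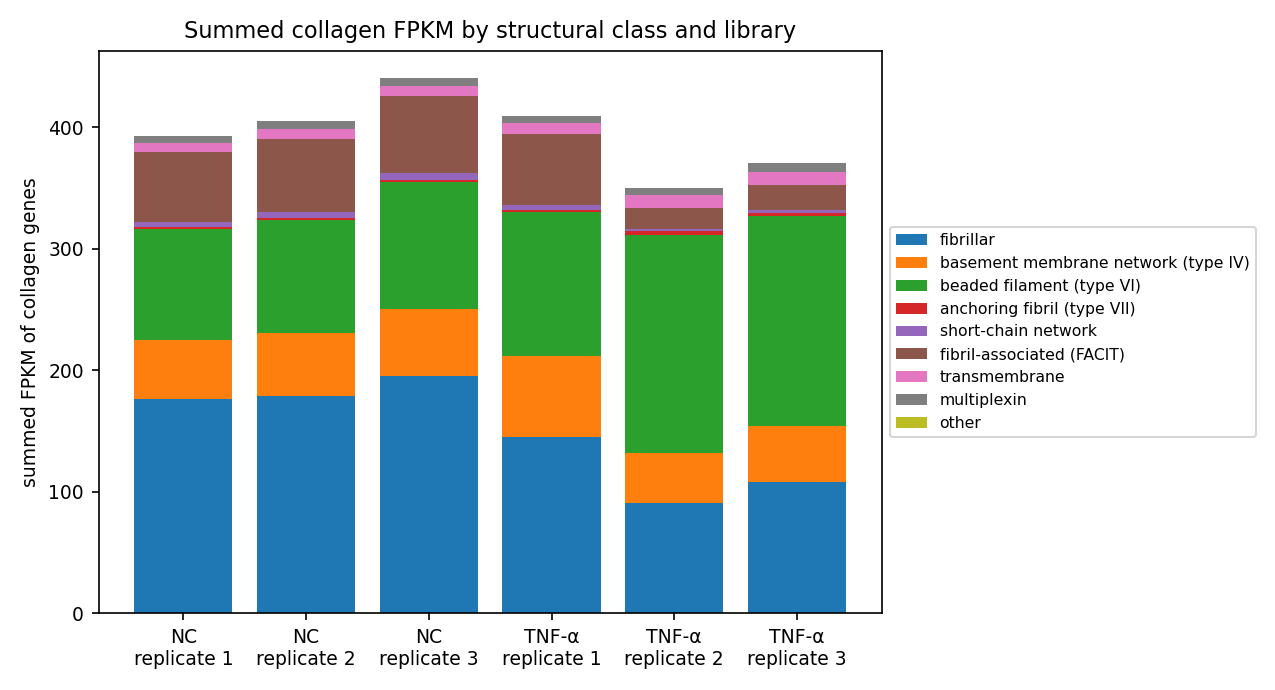
Summed FPKM of collagen genes in each library, stacked by structural class. Type VI chains (green) grow from 92.0 to 105 FPKM in the NC libraries to 119, 180 and 173 FPKM in TNF-α replicates 1 to 3, and fibril-associated chains (brown) stay at 58.3 FPKM in replicate 1 and reach 17.0 and 21.1 FPKM in replicates 2 and 3.

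The effect of TNF-α was then tested with limma on log2(FPKM + 1) over all 12136 genes that had at least 1 FPKM in at least 3 libraries. Of the 21 collagen genes tested, 1 was past the threshold of an adjusted p under 0.05, and it was higher. Of all genes tested, 1.01% passed, 0.717% higher and 0.297% lower, and a count of 1 says little beside these shares. Without adjustment 12 of the 21 collagen genes had a p under 0.05 in limma, against 24.2% of all genes. With limma-voom on the recovered reads 0 collagen genes passed the threshold and 13 had an unadjusted p under 0.05, against 28.3% of all genes in that fit. In 5 collagen genes every TNF-α library was above every NC library, where 14.8% of all genes tested behaved so, and in 7 every TNF-α library was below, where the share was 15.3%. The median log2 fold change of the 21 genes was -0.25, beside 0.04 over all genes tested. Without the filter on low values 41 collagen genes were fitted, 0 passed, and the medians were -0.03 and -0.01. COL21A1 reached the filter through the NC libraries alone, so its place in these counts was favoured by a low TNF-α level.

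COL27A1 (ENSG00000196739, GRCh38, chromosome 9, 114155560 to 114312511) encodes a fibrillar collagen chain of cartilage and other developing tissues. It had 1.41, 1.47 and 1.28 FPKM without TNF-α and 3.10, 3.12 and 2.79 FPKM in TNF-α replicates 1 to 3. The groups did not overlap, and the 3 TNF-α libraries lay close together in FPKM. Its reads were 1394, 1130 and 949 in TNF-α replicates 1 to 3, of 34726418, 37414474 and 31992167 reads in genes. The closeness thus depends on the library size inside the FPKM, which was 0.925, 0.693 and 0.759 of these reads. The rise was 2.17-fold in mean FPKM, with a log2 fold change of 0.75 (SE 0.11) and an adjusted p of 0.0485 in limma. It differed from the NC mean by 0.78, 0.79 and 0.67 in the TNF-α libraries, where the median of all genes of like length and GC content was -0.04, 0.02 and -0.0035. The adjusted p lay close to the threshold and passed it under 6 of 21 alternatives, with a range from 0.000216 to 0.368.

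COL17A1 had the next smallest adjusted p. It encodes a transmembrane collagen of hemidesmosomes, the junctions that anchor epithelial cells. Its level was 3.92, 4.12 and 4.27 FPKM without TNF-α and 6.68, 6.62 and 7.06 FPKM with it. The groups were apart and the TNF-α libraries again lay together in FPKM, while the reads were 1516, 1213 and 1211 in TNF-α replicates 1 to 3. The estimate in limma was 0.61 (SE 0.11) on the log2 scale, and the adjusted p of 0.0864 missed the threshold. Under TPM the limma estimate was 0.21 (adjusted p 0.480), and with limma-voom on the reads it was 0.46 (adjusted p 0.177). In limma it was 0.66 (adjusted p 0.0513) under quantile scaling and 0.75 (adjusted p 0.0503) with the length correction. With the length and GC correction it was 0.49 (adjusted p 0.0598). All genes of like length and GC content had a median of 0.53 in TNF-α replicate 2 and 0.44 in replicate 3, against -0.02 in replicate 1, so COL17A1 exceeded its class by 0.61 in replicate 1 and by 0.05 and 0.22 in the others.

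Of the fibrillar chains, 4 besides COL27A1 were tested, and in all 4 the TNF-α libraries lay below the NC libraries. COL1A2 had 116, 115 and 129 FPKM without TNF-α and 91.9, 61.8 and 73.5 FPKM with it. The limma estimate of the log2 fold change was -0.68 (SE 0.19, adjusted p 0.195). Replicates 2 and 3 were the lowest, and the class of long genes of low GC content to which COL1A2 belongs had medians of -0.71 and -0.65 in them.

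COL5A1 and COL5A2 encode the type V chains, which start and limit the growth of type I fibrils. COL5A1 had 23.3, 25.2 and 25.5 FPKM without TNF-α and 17.6, 12.996 and 15.8 FPKM with it, with a log2 fold change of -0.65 (SE 0.15, adjusted p 0.150). All 3 TNF-α libraries lay well below the NC range, and COL5A1 was 0.43, 0.89 and 0.60 below the median of its length and GC class in them. COL5A2 had 29.7, 31.2 and 33.3 FPKM against 28.7, 10.8 and 13.6 FPKM, with a log2 fold change of -0.91 (SE 0.34, adjusted p 0.195). Replicate 1 lay just under the NC libraries and replicates 2 and 3 lay far under them.

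COL11A1 encodes a chain of type XI collagen, a close relative of type V. It had 5.14, 4.29 and 5.24 FPKM without TNF-α and 3.52, 1.32 and 1.49 FPKM with it, with a log2 fold change of -0.99 (SE 0.27, adjusted p 0.191). Replicate 1 was also outside the NC range, by less than the other two.

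The type VI genes parted. These chains assemble with each other into filaments that link cells to the matrix around them, and COL6A1 and COL6A2 lie next to each other on chromosome 21, on the plus strand. COL6A1 (45981737 to 46005050) had 47.1, 46.5 and 53.8 FPKM without TNF-α and 62.2, 62.3 and 70.2 FPKM with it, with a log2 fold change of 0.40 (SE 0.14, adjusted p 0.195). COL6A2 (46098097 to 46132849) had 38.4, 40.2 and 43.4 FPKM against 48.7, 115 and 99.4 FPKM, with a log2 fold change of 1.00 (SE 0.33, adjusted p 0.195). All TNF-α libraries of both genes were above the NC libraries, COL6A2 in replicates 2 and 3 by far the most.

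Both are close in length, 5343 and 5386 bases, and in GC content, 63.5% and 66.4%. Against the median of their shared class, 0.53 and 0.44 in TNF-α replicates 2 and 3, COL6A2 was higher by 0.94 and 0.83, and COL6A1 differed by -0.19 and 0.07. COL6A1 under TPM and quantile scaling had log2 fold changes of -0.10 and -0.06, so its direction depends on the scaling. COL6A2 kept its direction under TPM and quantile scaling, at 0.51 and 0.51, below the 1.00 of the main fit. COL6A3, the long chain of the same filaments, had 6.57, 6.61 and 8.05 FPKM without TNF-α and 8.07, 2.68 and 3.10 FPKM with it, and the groups overlapped.

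The type IV genes are arranged in pairs that point away from each other. The RefSeq start sites of COL4A1 and COL4A2 on chromosome 13 lie at 110307157 on the minus strand and 110307284 on the plus strand, with 126 bases between them. For COL4A6 and COL4A5 on the X chromosome the gap is 379 bases. COL4A1 and COL4A2 encode the chains of the common basement membrane network. COL4A1 had 13.1, 14.4 and 15.8 FPKM without TNF-α and 23.2, 7.52 and 9.47 FPKM in TNF-α replicates 1 to 3. Replicate 1 lay above all NC libraries and replicates 2 and 3 below them, so no direction can be given for the group, and the log2 fold change of -0.25 (SE 0.39, adjusted p 0.618) has a different sign under several alternatives. COL4A2 had 27.5, 29.4 and 30.7 FPKM against 34.8, 30.6 and 33.5 FPKM, with a log2 fold change of 0.17 (SE 0.13, adjusted p 0.337) that turned to -0.33 under TPM, -0.14 under quantile scaling and -0.09 with limma-voom.

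The ratio of COL4A1 to COL4A2 was 0.476, 0.490 and 0.515 without TNF-α and 0.667, 0.246 and 0.283 with it. Each TNF-α library thus lay outside the NC range for these 2 neighbours, and the departure went up in replicate 1 and down in replicates 2 and 3. COL4A5 and COL4A6, chains of other basement membranes, were lower in level. COL4A5 had 5.17, 5.29 and 5.22 FPKM without TNF-α and 5.52, 1.68 and 1.88 FPKM with it, and COL4A6 had 1.86, 1.99 and 2.04 FPKM against 1.69, 0.973 and 1.10 FPKM. The groups were apart for COL4A6, with a log2 fold change of -0.41 (SE 0.15, adjusted p 0.195), and not for COL4A5.

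**Figure D3:**
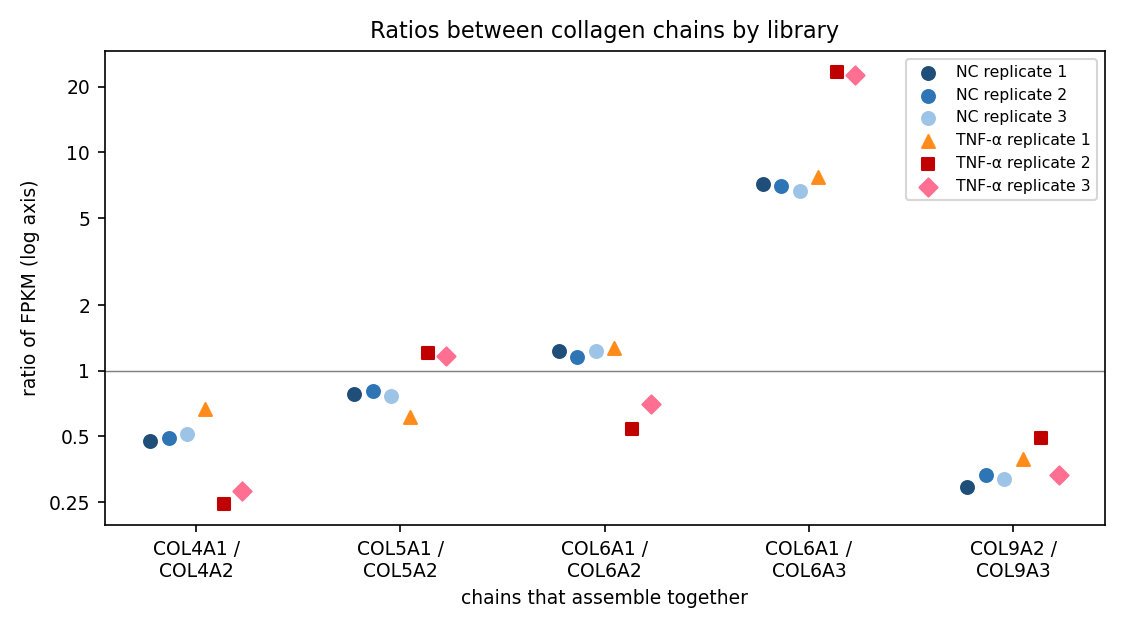
Ratio of FPKM between collagen chains that assemble together (log axis), with 1 symbol per library. For the type IV, V and VI pairs TNF-α replicate 1 stays near the NC libraries or departs the other way from replicates 2 and 3, which for COL6A1 to COL6A3 reach 23.3 and 22.6 against 6.68 to 7.17 in the NC libraries.

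The ratios within type VI and type V showed the same division of the libraries. COL6A1 was 1.16 to 1.24 times as high as COL6A2 in the NC libraries, 1.28 times in TNF-α replicate 1, and 0.542 and 0.706 times in replicates 2 and 3. COL6A1 was 6.68 to 7.17 times as high as COL6A3 in the NC libraries and 7.72, 23.3 and 22.6 times in the TNF-α libraries. The ratio of COL5A1 to COL5A2 was 0.765 to 0.806 without TNF-α and 0.612, 1.20 and 1.17 with it. In these type V and type VI ratios the chain with the higher GC content was the relatively higher one in replicates 2 and 3, although COL6A1 and COL6A2 differ little in it. COL9A2 and COL9A3, with 64.8% and 67.4% GC, did not follow this order in replicate 2. Their ratio was 0.292 to 0.332 without TNF-α and 0.395, 0.494 and 0.332 with it.

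Among the fibril-associated collagens, COL12A1 had the lowest fitted log2 fold change of the family. It had 50.9, 52.4 and 55.8 FPKM without TNF-α and 53.5, 10.97 and 13.8 FPKM in TNF-α replicates 1 to 3. Replicate 1 lay within the NC range, while replicates 2 and 3 were the lowest by a wide margin. The limma estimate was -1.34 (SE 0.56, adjusted p 0.195) on the log2 scale, and without replicates 2 and 3 it was 0.01. In replicates 2 and 3 COL12A1 was 1.69 and 1.40 lower than the median of all genes of like length and GC content, the greatest shortfall of the 21 genes. COL21A1, another chain of this class, had 1.40, 1.96 and 1.495 FPKM without TNF-α and 0.994, 0.191 and 0.460 FPKM with it, with groups apart, a log2 fold change of -0.79 (SE 0.22) and an adjusted p of 0.189. COL9A2 and COL9A3, chains of the cartilage fibril surface, had 0.767 to 4.56 FPKM over all libraries and overlapped between the groups.

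Of the remaining classes, COL8A1, a short-chain collagen of vessel walls and basement membranes, had 4.203, 5.22 and 5.13 FPKM without TNF-α and 3.52, 2.06 and 2.10 FPKM with it. The groups were apart, with a log2 fold change of -0.74 (SE 0.19, adjusted p 0.179). COL7A1, the anchoring fibril chain of skin, had 1.32, 1.37 and 1.51 FPKM against 1.57, 2.55 and 2.59 FPKM. The groups were apart but replicate 1 lay only just above the NC libraries, with a log2 fold change of 0.41 (SE 0.17, adjusted p 0.195). For COL7A1 the estimate was 0.11 under TPM and 0.55 under quantile scaling, so its size depends on the scaling. COL18A1, the multiplexin whose end fragment is endostatin, had 5.75, 6.53 and 6.68 FPKM without TNF-α and 5.13, 6.09 and 7.19 FPKM with it, and the groups overlapped. Exons of SLC19A1 on the opposite strand cover 16.4% of its exonic length, and the use of strand in counting is not given in the sources used here, so its value is uncertain. COL13A1, a transmembrane collagen, had 2.93 to 3.997 FPKM over all 6 libraries, also with overlap.

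The values of TNF-α replicates 2 and 3 were then set beside GC content. Of the 12 tested collagen genes with a GC content of 55% or more, 7, 8 and 9 were above the NC mean in TNF-α replicates 1 to 3. Of the 7 genes with 45% to 55%, 3, 0 and 0 were above it, and of the 2 genes below 45% 0 were above it in each. On the log2 scale the medians in the 3 libraries were 0.17, 0.21 and 0.28 for the 12 genes, -0.13, -1.21 and -1.11 for the 7 genes, and -0.38, -1.04 and -0.77 for the 2 genes. The classes below 55% thus lay under the highest class but were not in order between themselves, and COL5A1 and COL4A1, at 60.3% and 55.4% GC, were at -0.87 and -0.85 in replicate 2. Over all tested genes the medians in the 3 libraries were -0.03, 0.72 and 0.58 at 55% or more. They were -0.01, 0.14 and 0.10 at 45% to 55%, and 0.01, -0.39 and -0.33 below 45%. In replicates 2 and 3 the collagen medians lay below these in each class, which was not split by gene length here. Spearman's rho between GC content and the difference from the NC mean was 0.22, 0.76 and 0.79 over the 21 genes and -0.10, 0.45 and 0.44 over 12131 genes. The genes share the libraries and their base composition, and rho is given as a description across genes. With gene length rho was 0.29, -0.35 and -0.37 over the collagen genes.

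**Figure D4:**
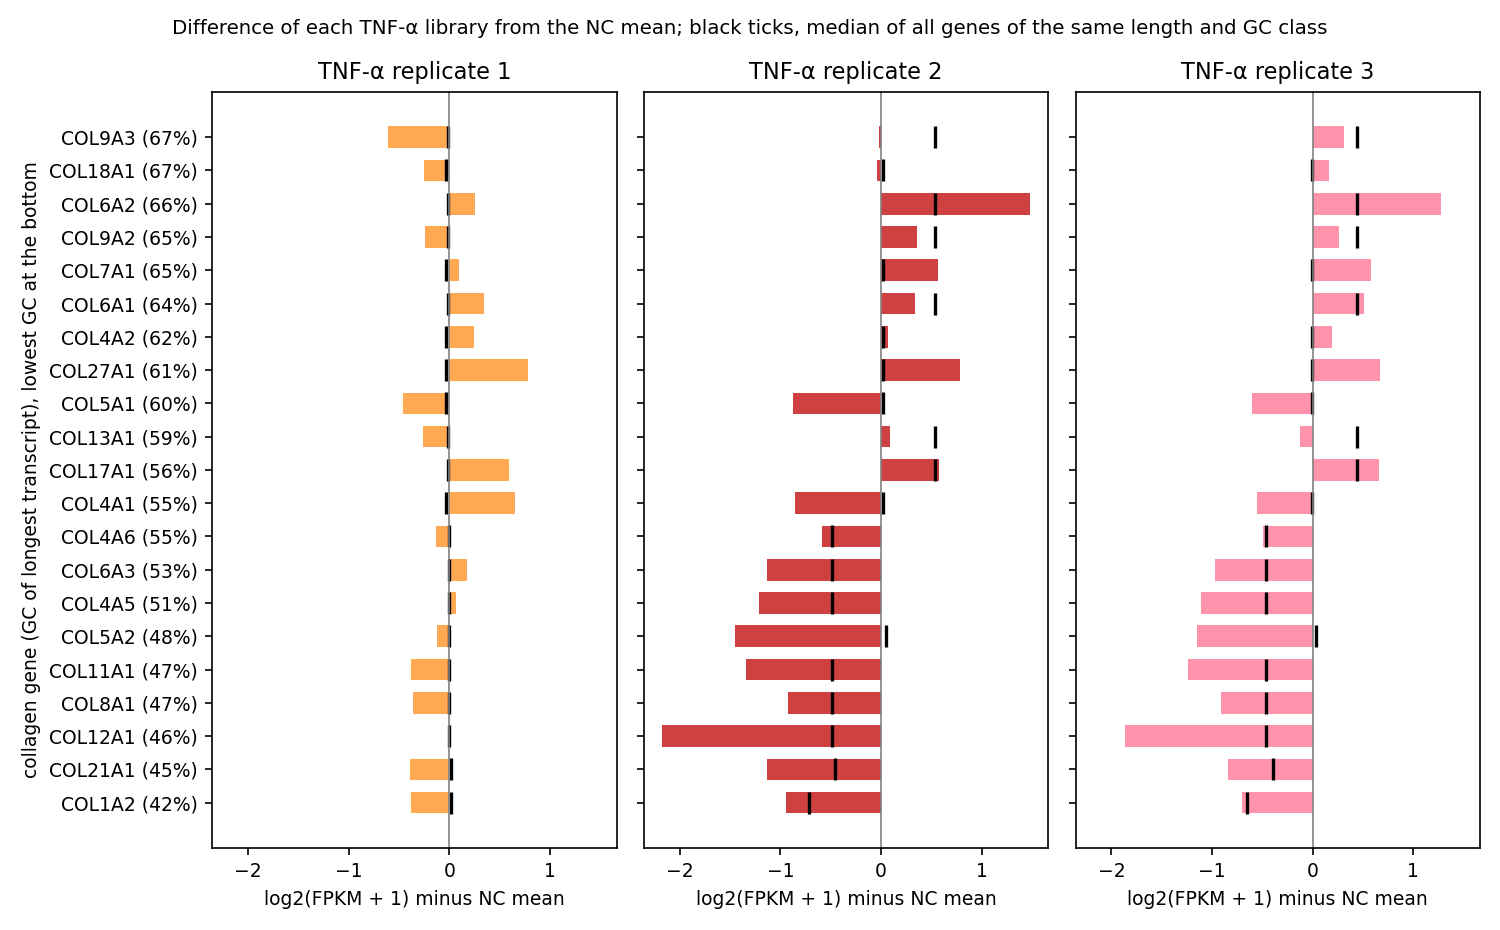
Difference of each TNF-α library from the NC mean on the log2(FPKM + 1) scale (bars) for the 21 tested collagen genes ordered by GC content, with the median of all tested genes of the same length and GC class (black ticks). In replicate 1 both genes below 45% GC lie to the left and the other genes lie on either side, and replicates 2 and 3 show bars to the left in all 9 genes below 55% GC, each reaching further left than the class median.

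Set against the class median rather than 0, 10 of the 21 genes were above and 11 below in TNF-α replicate 1, 5 above and 16 below in replicate 2, and 7 above and 14 below in replicate 3. A total of 5 genes were above in all 3 libraries, namely COL27A1, COL17A1, COL6A2, COL7A1 and COL4A2. Those below in all 3 numbered 10 and included COL1A2, COL5A1, COL5A2, COL11A1, COL8A1 and COL21A1. The share of all tested genes on 1 side in all 3 libraries was not computed, so these counts have no background and describe the members only. Some lay close to the class median, with COL4A2 and COL17A1 at 0.05 in replicate 2 and COL1A2 and COL4A6 at -0.04 and -0.03 in replicate 3. The groups of COL4A2 overlapped. The labels give no batch, date or RNA quality value, and replicates 2 and 3 have no NC library beside them, so in these libraries the treatment and the length and GC shift cannot be told apart.

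**Figure D5:**
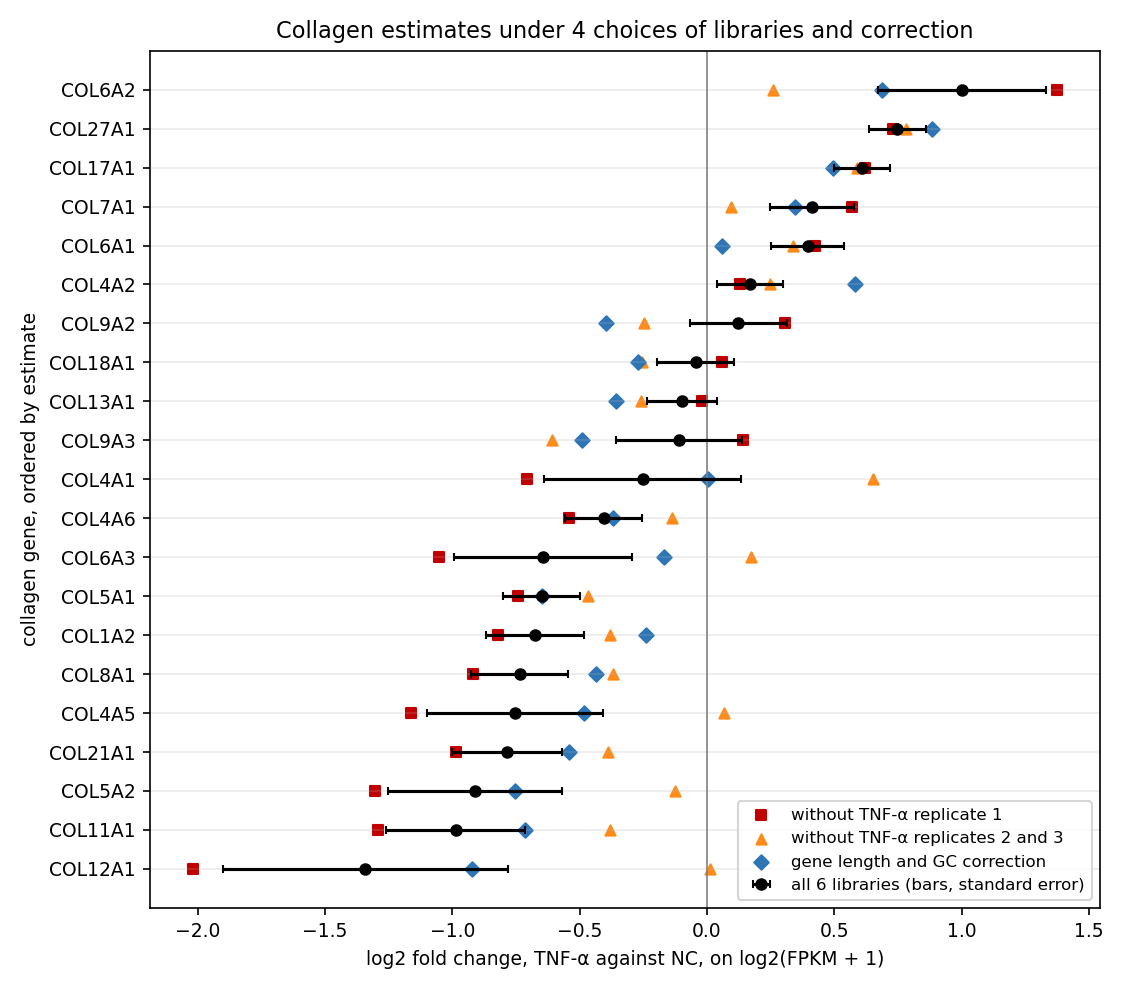
Log2 fold change of each tested collagen gene with all 6 libraries (black, bars are standard errors), without TNF-α replicate 1 (red), without TNF-α replicates 2 and 3 (orange) and after correction for gene length and GC content (blue). The 4 symbols of COL27A1, COL17A1 and COL5A1 lie close together, while those of COL4A1 run from -0.71 to 0.65 and those of COL12A1 from -2.02 to 0.01.

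The collagen calls depended on which libraries entered the fit. Without TNF-α replicate 1, 17 of the 21 genes passed, 6 higher and 11 lower, but so did 79.4% of all genes tested. With replicate 1 as the only TNF-α library, assumed to vary like the NC libraries, 5 passed beside 6.03% of all genes. These were COL27A1 (0.78, adjusted p 0.0162), COL17A1 (0.59, adjusted p 0.0147) and COL4A1 (0.65, adjusted p 0.0224), which were higher, and COL5A1 (-0.47, adjusted p 0.0286) and COL9A3 (-0.61, adjusted p 0.0482), which were lower, all in limma. The fit without replicate 1, which shares the NC libraries with this one, gave 0.73 for COL27A1, 0.62 for COL17A1, -0.71 for COL4A1, -0.74 for COL5A1 and 0.14 for COL9A3, and the last was not past the threshold. After the correction for gene length and GC content 1 collagen gene passed, again COL27A1, at 0.88 with an adjusted p of 0.0175, beside 2.04% of all genes. After correction for gene length alone 0 passed, beside 1.26% of all genes, and 12 had an unadjusted p under 0.05, beside 25.6% of all genes.

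Genes of the proteins that make, bind and remove collagen were read from 6 lists. Of the 21 tested genes for chain modification, folding and export, such as prolyl and lysyl hydroxylases and the chaperone SERPINH1, 0 passed the threshold in limma, 13 had a fold change above 0 and the median log2 fold change was 0.35. At an unadjusted p under 0.05 there were 5, and the share over all genes, 24.2%, is the background for this and the next lists. Of 8 tested genes for propeptide removal and cross-linking 0 passed, 3 without adjustment, with a median of 0.23. Of 9 tested genes for collagen breakdown 0 passed, 2 without adjustment, with a median of 0.34. With limma-voom 0 passed in each of these lists.

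The lists of collagen receptors and of collagen-binding matrix proteins had medians on the other side of 0, at -0.56 over 6 tested genes and -0.40 over 9. In both, 0 passed the threshold in limma and in limma-voom, and 2 genes of each had an unadjusted p under 0.05. Gene length went along with the medians. The receptor genes had a median length of 8516 bases and the modification genes 5326 bases. The lists also differed in GC content. Of the tested receptor genes ITGB1, ITGA2, DDR2 and ITGA1 had 38.8% to 41.6%, and MRC2 and DDR1 had 63.7% and 61.6%. The tested modification genes ran from 34.0% (TMEM38B) to 62.0% (P3H3), with P4HB at 58.4%. In TNF-α replicate 1 the list medians were -0.08 for receptors and 0.01 for modification, against -0.81 and 0.48 in replicate 2 and -0.68 and 0.39 in replicate 3. The part of gene length and GC content in the list medians was not tested.

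The sixth list held proteins outside the family that carry a collagen-like stretch. Of 26 genes 4 were tested, and C1QTNF1 passed. It encodes a secreted protein with a collagen-like tail and a C1q-like head. Its level was 1.06, 1.08 and 1.37 FPKM without TNF-α and 8.69, 16.0 and 15.3 FPKM with it. All TNF-α libraries were far above the NC libraries, including replicate 1. The rise was 11.4-fold in mean FPKM, with a log2 fold change of 2.68 (SE 0.24) and an adjusted p of 0.00965 in limma. The call was lost in 4 of the 22 alternatives, those without any 1 NC library or without TNF-α replicate 3, with an adjusted p of up to 0.103, and the direction was kept in all 22.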

How the data were processed

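The authors deposited gene expression as FPKM, in 1 column for each library, beside the gene length. The submitters' processing notes name HISAT2 2.0.5, StringTie 1.3.3b, featureCounts 1.5.0, DESeq2, edgeR and GATK 3.7, without their roles. Poly(A) RNA was used, and the use of strand is not given in the sources used here. All 58735 genes matched GENCODE release 29 (GRCh38) in position and merged exon length. The table holds 6 further columns of other samples, which were not used. Multiplied by gene length, 100% of the FPKM values came out as whole reads, within a tolerance of 0.1. The library size inside the FPKM was 0.925 to 0.959 of the reads in genes in 4 libraries and 0.693 and 0.759 in TNF-α replicates 2 and 3. A count of 3 reads in a gene of 5 kb gave 0.0166 to 0.0247 FPKM.

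Values were tested as log2(FPKM + 1), with a pseudocount of 1, which understates the change of low genes. Genes with at least 1 FPKM in at least 3 of 6 libraries were fitted with limma 3.58.1 in R 4.3.3 (two-sided, eBayes with trend). The Benjamini-Hochberg adjustment ran over all 12136 genes, and an adjusted p under 0.05 was the threshold. GC content is that of the longest GENCODE transcript, as no genome was used. Length classes were split at 2, 4 and 8 kb and GC classes at 45% and 55%. The corrections subtracted natural splines with 5 degrees of freedom. The fit was tested on simulated reads that held no length or GC shift. That check cannot show how the fit behaves with the shift of TNF-α replicates 2 and 3. Promoter windows came from RefSeq on GRCh38.p14. Python 3.11.15, pandas 2.3.3 and matplotlib 3.10.9 were used.

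Genes were described in full if past the threshold, without overlap between the groups, at 10 FPKM or more in the NC mean, or highest in their structural class, and up to 4 genes past the threshold were taken from each list. The members and the lists were chosen with earlier results of these data known. Alternatives were a pseudocount of 0.1 or 0.5, no filter, a filter of 5 FPKM, protein-coding genes only, TPM, quantile scaling, median centring, length and GC corrections, eBayes without trend or robust, the replicate number as a block, limma-voom on reads, each library left out, and TNF-α replicates 2 and 3 left out together.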

Additional observations from a re-analysis of the deposited data

How the results depend on the processing

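The count of collagen genes past the threshold was 1 and went to 0 with a pseudocount of 0.1 or 0.5, no filter, a filter of 5 FPKM, TPM, median centring, the gene length correction, eBayes without trend, limma-voom and the replicate block with or without the length correction. Leaving out 1 library gave 0 to 17 genes, the 17 without TNF-α replicate 1 and 0 without any other, and leaving out TNF-α replicates 2 and 3 gave 5. COL27A1 passed under 6 of 21 alternatives and kept its direction under all 21. The median log2 fold change of the collagen genes was -0.76 under TPM, -0.55 with limma-voom and -0.19 to -0.54 with 1 library left out. Over all genes the median was -0.42 under TPM and -0.21 with limma-voom, and relative to these the collagen medians were -0.34 and -0.34, against -0.30 in the main result. This difference from all genes was -0.13 with the gene length correction and -0.36 with the length and GC correction. Without TNF-α replicates 2 and 3 it was -0.12. Its range ran from -0.61 without TNF-α replicate 1 to -0.02 without the filter, so its size depends on the processing.

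Libraries of the same replicate number had correlations of deviations from the group means of -0.01, -0.18 and 0.12. The TNF-α deviations hold the length and GC shift of replicates 2 and 3, so these correlations cannot show whether the libraries were paired. With the replicate number as a block 24 genes passed, against 123 without it, and 0 collagen genes, without changing another collagen call.

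Of the 21 collagen genes, 11 kept their direction under all alternatives run. The others reversed as follows. Under TPM, COL4A2 was -0.33, COL6A1 -0.10 and COL9A2 -0.25. Under quantile scaling, COL4A2 was -0.14, COL6A1 -0.059 and COL13A1 0.00047. With the length correction, with or without the block, COL18A1 was 0.18, COL4A1 0.17 and COL9A2 -0.050. With the length and GC correction, COL4A1 was 0.0052 and COL9A2 -0.40. With limma-voom, COL4A2 was -0.092 and COL9A2 -0.069. Without TNF-α replicates 2 and 3, COL12A1 was 0.013, COL4A1 0.65, COL4A5 0.066, COL6A3 0.17 and COL9A2 -0.25. With 1 library left out, COL18A1 ran from -0.15 to 0.061 and COL9A3 from -0.32 to 0.14, each highest without TNF-α replicate 1, and COL4A1 ran from -0.71 to 0.048, highest without TNF-α replicate 2. The cause was not tested.

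Over the lists, leaving out 1 library gave 0 to 19 genes past the threshold for modification, 0 to 6 for propeptide removal, 0 to 6 for receptors, 0 to 8 for breakdown, 0 to 7 for matrix proteins and 0 to 4 for collagen-like proteins, the highest without TNF-α replicate 1 each time, where 79.4% of all genes passed. C1QTNF1 was lost without any 1 NC library and without TNF-α replicate 3 (adjusted p up to 0.103). Without TNF-α replicates 2 and 3 there was 1 gene for modification, 2 for receptors, 1 for breakdown and 1 for matrix proteins, where 6.03% of all genes passed. The receptor DDR1 passed under quantile scaling and with the length and GC correction, 1 gene in each.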

Other observations

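Loci named after collagen genes gave little signal. The 3 collagen pseudogenes COL6A4P1, COL6A4P2 and COL11A2P1 had 0 reads in all 6 libraries. The 5 antisense loci had at most 13 reads, the highest being COL4A2-AS1 with 12, 13 and 3 reads without TNF-α and 7, 3 and 0 reads with it.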
